A study of Rattus norvegicus with 9 samples.

Results

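The 131 genes described here encode proteins of the cytosolic and the mitochondrial ribosome. They are the genes that the deposited annotation assigns to the KEGG ribosome pathway (rno03010) and whose names begin with Rpl, Rps, Mrpl or Mrps, out of 163 genes in that pathway and 21486 in the table. Of them, 91 belong to the cytosolic ribosome, with 33 for the small 40S and 58 for the large 60S subunit. The other 40 belong to the mitochondrial ribosome, with 14 for the 28S and 26 for the 39S subunit, and 3 of these are spelt in lower case in the table (mrpl9, mrpl11 and mrpl24).

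RNA was taken from tissue that had formed inside conduits that spanned a 2 cm defect of the rat sciatic nerve, collected 14 days after implantation. Hollow conduits had an empty lumen. AFMC conduits held aligned fibers and lengthwise microchannels, and AFMC-AA-SP conduits were AFMC conduits with spermidine adsorbed on the fiber surface and L-ascorbic acid inside the fibers. Each group has 3 libraries, all from poly(A)-selected, strand-specific RNA. Strain, sex, age and the number of animals are not given in the labels, so p-values measure only the spread between these libraries, which may be technical. In a bulk tissue, fewer cells of a type and less RNA per cell cannot be told apart.

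Ribosomes translate messages into protein, and their proteins are made in balanced amounts, since each particle holds most of them as a single copy. Messages for cytosolic ribosomal proteins commonly begin with a C followed by a run of pyrimidines, the terminal oligopyrimidine (TOP) motif, through which the growth kinase mTORC1 and the RNA-binding protein Larp1 adjust their translation. Mitochondrial ribosomal proteins are encoded in the nucleus and imported into mitochondria, where they translate the few proteins encoded by mitochondrial DNA. Remyelinating Schwann cells and fibroblasts depositing matrix are cells with heavy protein synthesis.

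The annotated starts of these genes are shown because the TOP motif was frequent among cytosolic and rare among mitochondrial members. RefSeq promoter sequences (build GRCr8) matched 53 of 76 cytosolic symbols and 30 of 40 mitochondrial ones. The start base was C, followed by 4 or more C or T, in 17 of 53 cytosolic genes (32.1%) and 2 of 30 mitochondrial genes (6.67%), against 3.11% of all 27457 genes in that table. It was found in 4 of 21 matched 40S genes and 13 of 32 matched 60S genes. Each line below runs 5′ to 3′ from 12 bases before the annotated start to 18 bases from it, and capitals mark the pyrimidine run. The 5 genes are examples among the members whose values are described further on.
Rplp0 (chr12:46718373-46718402, minus strand): cgcaccgcacttCTCTCgccaggcgtcctc
Rps15 (chr7:10068098-10068127, minus strand): tgacaccgcttcCTTTTCCCagcagccgcc
Rpl10 (chrX:157205838-157205867, plus strand): gcgtgggagcgtCTCTTTTCCTCTggcgcg
Rpl22 (chr5:168117949-168117978, plus strand): gtgcgcccccctCCCTTTCTgcctcctctg
Rps27 (chr2:177964589-177964618, minus strand): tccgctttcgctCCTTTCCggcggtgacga

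Members without such a run at the annotated start are shown for contrast, with the start base alone in capitals. The run was required at the annotated base itself, so a gene whose start is annotated a few bases off counts as without it. The Rps28 line holds a run of C and T a few bases downstream of its annotated start.
Rps28 (chr7:15311316-15311345, minus strand): tcccctgctcacGtgactcctctccgctag
Rpl3l (chr10:14258434-14258463, plus strand): ctctggtgcctgGtggggaggtcccttcct
Mrpl12 (chr10:106256734-106256763, plus strand): cgagacaaaggcAtgccgcggagggctgca

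Searched on both strands of the 300 bases around the annotated start, the core CCGGAAG of GABPA, an ETS factor of nuclear genes for mitochondria, occurred in 11 of 30 mitochondrial genes (36.7%) and 14 of 53 cytosolic genes (26.4%), against 9.63% of all genes. The core GCATGCGC of NRF1, a further regulator of such genes, occurred in 3 of 30 mitochondrial (10%) and 2 of 53 cytosolic genes (3.77%), against 2.77% of all. The core AAGATGGC of YY1 occurred in 5 of 30 mitochondrial (16.7%) and 3 of 53 cytosolic genes (5.66%), against 3.62% of all. The cores CCGGAAG and AAGATGGC can overlap, since the former ends and the latter begins with AAG, and a match describes letters and not binding. Matches in 3 named mitochondrial genes are given with the core in capitals, on the gene's strand.
Mrpl17 (chr1:169575734-169575763, minus strand): ggctctgatgcGCATGCGCaagcacccctg
Mrpl22 (chr10:42845870-42845899, plus strand): agcctcggactGCGCATGCgtgcaggcagc
Mrpl27 (chr10:80092273-80092301, plus strand): gtacgcaagacCCGGAAGtagatctatcc

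The 9 libraries held 18314489 to 26074134 counts, and 15659 genes passed the filter on low counts. The Schwann cell markers Sox10 and S100b were found in every library, with 8 of 8 markers of that list detected and summed levels of 1919 to 2882 CPM (each count relative to the scaled library total) in the Hollow libraries, 1214 to 1928 in the AFMC libraries and 1879 to 2181 in the AFMC-AA-SP libraries. In immune markers AFMC replicate 3 lay far from the rest: its 6 neutrophil markers summed to 494 CPM against 32.2 to 97.8 in the other 8 libraries, and its 7 B and plasma cell markers to 1400 against 148 to 267. The libraries also differed by gene length. Spearman's rho between length and a gene's deviation from its mean over libraries, across all tested genes, was -0.31, -0.03 and -0.19 in the AFMC libraries, 0.25, 0.08 and 0.01 in those from Hollow conduits and 0.18, 0.16 and 0.04 in those with the added molecules. Where rho is negative, short genes read high in that library, and ribosomal protein genes are short.

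Of the 131 genes, 82 cytosolic and 39 mitochondrial ones passed the filter. The 9 cytosolic genes that did not are 4 intron-free loci named Rpl39, the intron-free copies Rpl37 on chromosome 9 and Rps20 on chromosome 3, and Rplp0l1, Rpl30l1 and Rpl39l, of which no library held more than 0.439 CPM. The only mitochondrial gene left out was Mrps17, at 0.149 to 0.578 CPM. Of the 91 cytosolic genes, 21 have no annotated intron, as a processed copy would, and 14 of these were tested. No mitochondrial member lacks an intron. The 91 genes carry 76 symbols, and 9 symbols stand at more than 1 locus.

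Cytosolic ribosomal protein genes were among the most abundant in the tissue. Their median level was 199 FPKM (counts scaled by gene length and library total, mean of 9 libraries), with 58 of 82 above 100, against 12.8 FPKM for the 39 mitochondrial genes and 6.61 for all genes tested. The subunits were alike within each ribosome, with medians of 204 FPKM for 40S and 199 for 60S genes, and 11.6 for 28S and 13.9 for 39S genes. The highest cytosolic levels belonged to Rplp0, the base of the stalk of the large subunit, at 742 FPKM, Rps15 at 657 and Rpl10, a late-joining 60S protein, at 627. The highest mitochondrial levels were 69.7 FPKM for Mrpl17, 41.5 for Mrpl20 and 31.0 for Mrpl27, and the lowest tested were 3.24 for Mrps18c and 3.67 for Mrpl30. FPKM divides by 1 length per gene, which for some members was long for a ribosomal protein gene, as for Rpl8 with 5755 bp (60.3 FPKM) and Rpl22 with 3712 bp (25.8 FPKM), and this lowers their level.

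**Figure D1:**
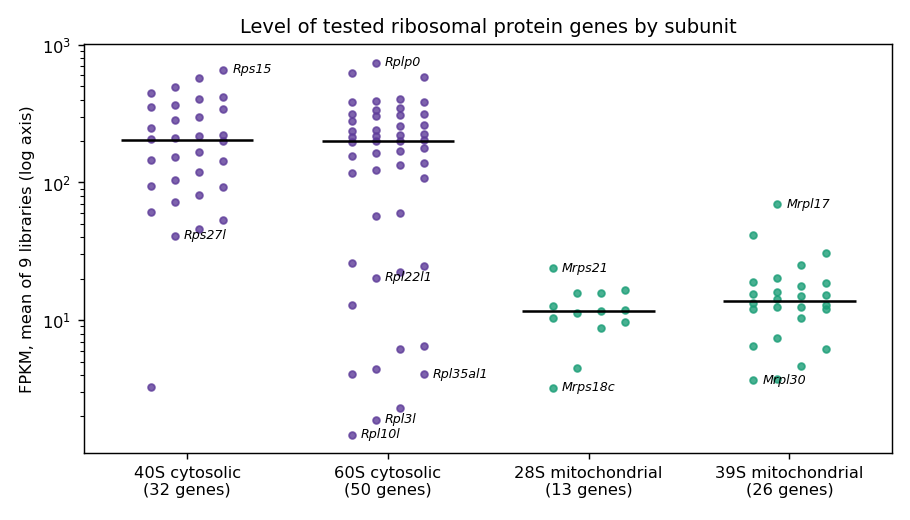
Mean FPKM over the 9 libraries on a log axis for each tested ribosomal protein gene, by subunit, with a black line at the median of the subunit. Cytosolic medians sit near 200 FPKM and mitochondrial medians near 13, with Rpl3l and Rpl10l at the bottom of the 60S genes.

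Paralogs of standard subunits ranged from near 0 to levels above the median of all genes tested. Rpl3l, which takes the place of Rpl3 in heart and skeletal muscle, had a mean of 1.89 FPKM against 315 for Rpl3. Rpl10l, a testis gene in mouse and human, had 1.47 FPKM against 627 for Rpl10. Rpl22l1 had 20.3 FPKM against 25.8 for Rpl22, but these values divide by lengths of 1486 bp and 3712 bp. In CPM, which does not divide by length, group means were 28.6 to 33.3 for Rpl22l1 and 90.7 to 102 for Rpl22. Rps27l, a p53 target in human cells, had 41.0 FPKM against 119 for Rps27. Rpl39l stayed at 0 to 0.439 CPM. Rpl36al, Rpl26l1, Rpl7 and Rpl41 were not analysed here.

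Rpl3l varied more between libraries than all but 1 of the tested cytosolic genes. It had 5.96, 0.749 and 0.791 CPM in the Hollow libraries, 5.97, 1.30 and 3.73 in the AFMC libraries and 4.40, 1.83 and 4.55 in the AFMC-AA-SP libraries. The libraries that were high for Rpl3l were high for skeletal muscle markers. The muscle actin Acta1 had 583, 40.5 and 28.2 CPM in the Hollow libraries, 654, 64.6 and 254 in the AFMC libraries and 394, 184 and 629 in the AFMC-AA-SP libraries. The 7 muscle markers in the table summed to 124 to 1975 CPM in the Hollow libraries, 233 to 2084 in the AFMC libraries and 670 to 2110 in the AFMC-AA-SP libraries, and their part in the Rpl3l values was not tested. The conduit groups overlapped for Rpl3l.

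Together the cytosolic genes took 1.75% to 2.15% of all counts. Their summed level was 17205, 19626 and 20151 CPM in the Hollow libraries, 22126, 18974 and 21457 in the AFMC libraries and 17462, 18524 and 19030 in the AFMC-AA-SP libraries. The group means were 18994 ± 1572 (SD, n = 3), 20852 ± 1661 and 18339 ± 800.3 CPM. AFMC replicates 1 and 3 were the highest of all libraries, while AFMC replicate 2 lay inside the range of both other groups. The mitochondrial genes summed to 779, 841 and 842 CPM in the Hollow libraries, 963, 825 and 865 in the AFMC libraries and 773, 815 and 827 in the AFMC-AA-SP libraries. Again AFMC replicate 1 was the highest and AFMC replicate 2 lay inside the range of Hollow.

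The ratio of cytosolic to mitochondrial member counts changed little between libraries. It is a ratio of messages and covers the members alone. Left out are 34 tested Mrpl or Mrps genes outside the term, and cytosolic genes such as Rps9. Cytosolic counts were 22.1 to 24.8 times the mitochondrial counts in every library, with group means of 23.1 ± 0.952 in the Hollow libraries, 23.6 ± 1.05 in the AFMC libraries and 22.8 ± 0.213 in the AFMC-AA-SP libraries (SD, n = 3), and the 3 groups overlapped. The mean deviation of the 2 classes from their level over all libraries ran together, with Pearson's r = 0.95 over the 9 libraries, which share depth and length trend within each library. The cytosolic deviation ran from -0.19 (log2, Hollow replicate 1) to 0.26 (AFMC replicate 1), and the mitochondrial one from -0.12 (AFMC-AA-SP replicate 1) to 0.20 (AFMC replicate 1). The 2 libraries with the most negative length rho had the 2 highest deviations of both classes, and the library with the most positive rho had the lowest cytosolic level.

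**Figure D2:**
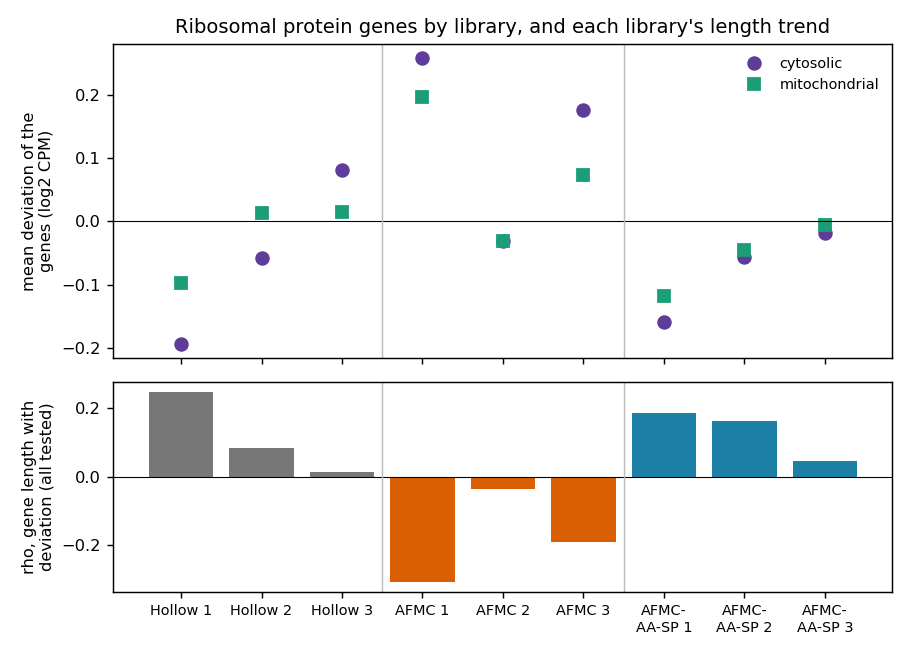
Upper panel: mean deviation of the tested cytosolic (circles) and mitochondrial (squares) genes from their mean over 9 libraries, in log2 CPM. Lower panel: Spearman's rho between gene length and deviation over all tested genes; AFMC replicates 1 and 3 have the highest deviations and the most negative rho.

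Most single cytosolic genes followed their class closely, and mitochondrial genes did so less. The median correlation of a cytosolic gene with the mean of the rest of its class over 9 libraries was 0.86, and 57 of 82 genes were above 0.8. For mitochondrial genes the median was 0.69 and 8 of 39 were above 0.8. These correlations share the depth and the length trend of each library. The median coefficient of variation over 9 libraries was 11.1% for cytosolic and 9.50% for mitochondrial genes, against 14.2% for all genes tested. Among the cytosolic genes, 7 departed from the class by an SD above 0.4 (log2): Rpl35al1, Rpl3l, Rpl10l, Rps27a, Rpl38 on chromosome 3 and both Rpl30 loci. No mitochondrial gene did.

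The comparison of AFMC with Hollow addresses the effect of the conduit's inner structure. Most ribosomal protein genes were slightly higher in AFMC, but none passed the test. Of the cytosolic genes, 77 of 82 had a positive log2 fold change, with a median of 0.14 (quartiles 0.09 and 0.20, median SE 0.11), and of the mitochondrial genes 35 of 39, with a median of 0.13 (quartiles 0.08 and 0.17, median SE 0.10). The median over all genes tested was 0.01. By edgeR's quasi-likelihood test at an adjusted p under 0.05, no member was called and 0% of all genes were. At an unadjusted p under 0.05, 6 cytosolic genes (Rpl35al1, Rps28, Rps2, Rplp2, Rps27 and Rpl27) and 0 mitochondrial genes were higher, against 8.4% of all genes tested. AFMC lay wholly above Hollow for 4 of 82 cytosolic and 7 of 39 mitochondrial genes, against 10.2% of all genes. DESeq2 called 3 cytosolic genes higher, Rpl35al1, Rps28 and Rps2, and no mitochondrial gene, against 2.93% of the genes for which it gave an adjusted p.

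Rps2, a small-subunit protein at the mRNA entry, had 296, 347 and 464 CPM in Hollow and 532, 509 and 483 in AFMC. All 3 AFMC libraries lay above the 3 Hollow libraries, although Hollow replicate 3 came close. The log2 fold change was 0.46 ± 0.15 (SE), with an adjusted p of 0.154 by edgeR and 0.0426 by DESeq2. Rps28, a short 40S protein at the mRNA exit, had 27.70, 29.15 and 37.07 CPM in Hollow and 42.96, 39.04 and 46.42 in AFMC. The groups again did not overlap, and the log2 fold change was 0.45 ± 0.14 (adjusted p = 0.140 by edgeR, 0.0465 by DESeq2). Rplp2, an acidic protein of the 60S stalk, had 81.3, 95.5 and 103 CPM in Hollow and 127, 104 and 126 in AFMC, with a log2 fold change of 0.35 ± 0.12 (adjusted p = 0.160 by edgeR, 0.0715 by DESeq2). The lowest AFMC library was barely above the highest Hollow library.

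Among mitochondrial genes the smallest p belonged to Mrps15, of the 28S subunit, with 25.2, 23.1 and 24.1 CPM in Hollow and 29.7, 24.7 and 28.6 in AFMC. Its groups overlapped, and the log2 fold change was 0.20 ± 0.09 (adjusted p = 0.269, edgeR). Mrpl16, a 39S protein, had 14.6, 13.5 and 13.8 CPM in Hollow and 16.3, 15.8 and 15.5 in AFMC, with no overlap (0.18 ± 0.09, adjusted p = 0.299, edgeR). Mrps12, the decoding-site protein, had 11.96, 11.98 and 12.56 CPM in Hollow and 14.42, 13.14 and 14.86 in AFMC (0.22 ± 0.11, adjusted p = 0.302, edgeR). Mrpl12, a stalk protein of the 39S subunit, overlapped between the groups (29.7, 32.0 and 29.7 CPM against 39.3, 33.8 and 29.6), and so did Rps6, the S6 kinase substrate (498, 598 and 593 against 617, 548 and 595).

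Other short genes were also higher in AFMC. Genes outside the group that are under 1000 bp long had a median log2 fold change of 0.14, with 67.9% positive, those of 1000 bp to under 2000 bp 0.09 with 66.0% positive, and those of 2000 bp or more -0.02 with 46.2% positive. Cytosolic genes had medians of 0.17, 0.12 and 0.10 in the same classes, with 38 of 41, 25 of 26 and 14 of 15 positive. Mitochondrial genes had 0.12 (5 of 6), 0.13 (23 of 24) and 0.14 (7 of 9). With an offset that removes each library's length trend as measured on other genes, the medians were 0.06 for cytosolic genes (66 of 82 positive) and 0.03 for mitochondrial genes (29 of 39), beside 0.02 for the other genes tested (8340 of 15538). Hollow replicate 1 and AFMC replicate 1 carried much of the shift: the cytosolic median was 0.06 without Hollow replicate 1 (64 of 82 positive), the mitochondrial median was 0.08 without that library and 0.06 without AFMC replicate 1, and the cytosolic median was 0.22 without AFMC replicate 2.

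**Figure D3:**
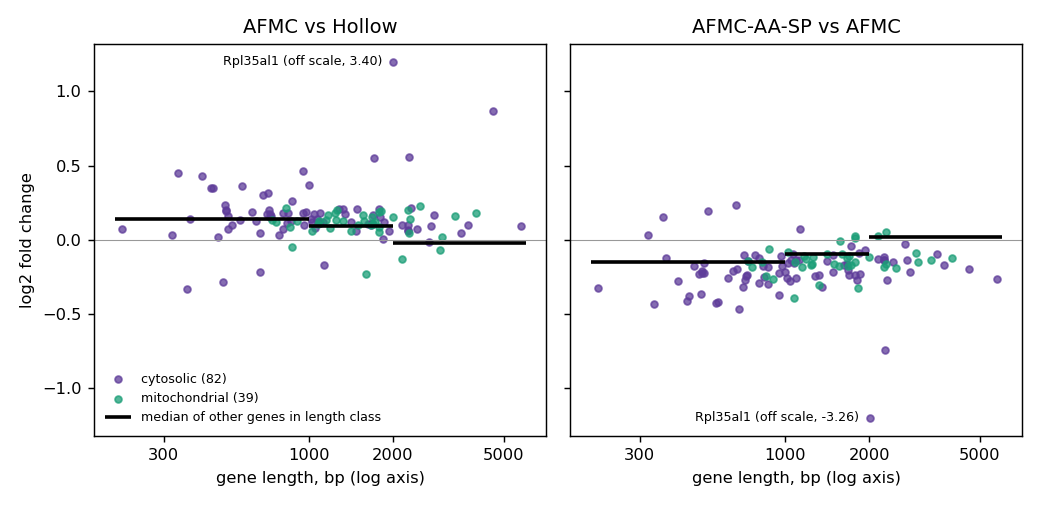
Log2 fold change of the 121 tested ribosomal protein genes against gene length on a log axis, for AFMC against Hollow and AFMC-AA-SP against AFMC. Black bars are medians of the other tested genes in 3 length classes (0.14, 0.09 and -0.02 on the left); the comparisons share the AFMC libraries.

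AFMC-AA-SP was set against AFMC to ask about the added release of spermidine and ascorbic acid. Ribosomal protein genes were mostly slightly lower in AFMC-AA-SP, and again none passed the test. The 2 comparisons share the AFMC libraries, so the reversed sign adds no separate evidence. Of the cytosolic genes 77 of 82 were negative, with a median log2 fold change of -0.21 (quartiles -0.26 and -0.13, median SE 0.11), and of the mitochondrial genes 35 of 39, with a median of -0.15 (quartiles -0.18 and -0.10, median SE 0.10). The median over all genes was -0.01. edgeR called no member and 0% of all genes. At an unadjusted p under 0.05, 23 of 82 cytosolic and 3 of 39 mitochondrial genes were lower, against 7.21% of all genes. AFMC-AA-SP lay wholly below AFMC for 29 of 82 cytosolic and 4 of 39 mitochondrial genes, against 10.3% of all. DESeq2 called 2 cytosolic genes lower, with Rpl35al1 among them, and no mitochondrial gene, against 0.888% of all.

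Medians were negative for all 4 subunits. Of the 40S genes 31 of 32 were negative, with a median of -0.24, and 12 had an unadjusted p under 0.05 by edgeR. Of the 60S genes 46 of 50 were negative, with a median of -0.17 and 11 under that p. For 28S and 39S genes the medians were -0.12 (10 of 13 negative) and -0.15 (25 of 26 negative), with 1 and 2 genes under that p. Over all genes tested, 7.21% were lower at that p. Cytosolic genes with and without a TOP run at the annotated base differed little here, with medians of -0.20 for 17 genes and -0.21 for 36. They were 0.13 and 0.16 for AFMC against Hollow. Any gene whose start is annotated a few bases off would fall in the set of 36.

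Rps28 had 29.3, 36.7 and 29.3 CPM in AFMC-AA-SP, below every AFMC library (log2 difference -0.43 ± 0.14, adjusted p = 0.193, edgeR). Rplp2 had 83.1, 97.9 and 93.5 CPM, also below every AFMC library (-0.38 ± 0.12, adjusted p = 0.181, edgeR). Rplp0 had 866, 871 and 927 CPM against 1079, 944 and 1134 in AFMC, a log2 fold change of -0.24 ± 0.10 (adjusted p = 0.252, edgeR).

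Among mitochondrial genes, Mrps21 had 25.2, 21.1 and 24.5 CPM in AFMC against 18.9, 20.3 and 19.7 in AFMC-AA-SP, with no overlap (-0.27 ± 0.09, adjusted p = 0.224, edgeR). Mrpl22, which lines the exit tunnel of the 39S subunit, had 18.5, 13.6 and 12.6 CPM against 11.1, 10.4 and 12.7, and 1 AFMC-AA-SP library exceeded the lowest AFMC library (-0.39 ± 0.15, adjusted p = 0.249, edgeR). Mrpl18, which brings the 5S rRNA into mitochondria in human cells, did not share the direction, with 23.7, 18.9 and 24.2 CPM in AFMC against 23.4, 21.6 and 23.2 in AFMC-AA-SP.

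**Figure D4:**
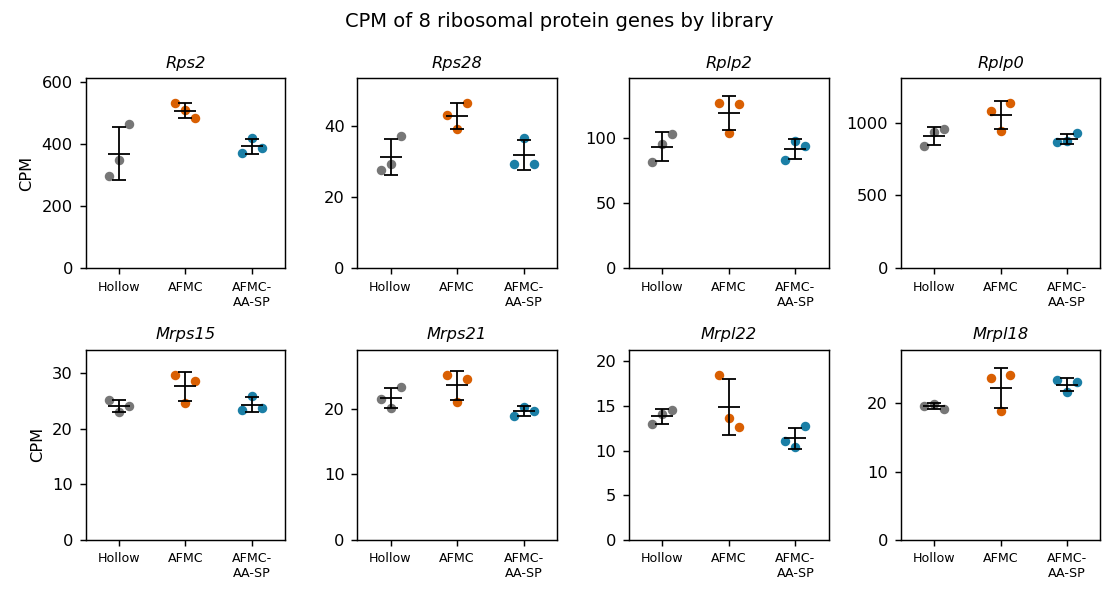
CPM of 8 ribosomal protein genes in each library (points) with the group mean and SD (bars), n = 3 per group, on axes that start at 0. Rplp0 and Mrps21 in AFMC-AA-SP lie below all AFMC libraries, and Rps2 and Rps28 in AFMC lie above all Hollow libraries.

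Other short genes shifted the same way. Genes outside the group had medians of -0.15 under 1000 bp, -0.10 from 1000 bp to under 2000 bp and 0.02 at 2000 bp or more, against -0.22, -0.17 and -0.15 for cytosolic and -0.17, -0.14 and -0.14 for mitochondrial genes. With the length offset the medians were -0.12 for cytosolic genes (73 of 82 negative) and -0.08 for mitochondrial genes (32 of 39), beside -0.02 for the other genes tested. At an unadjusted p under 0.05 by edgeR, 9 of 82 cytosolic and 0 of 39 mitochondrial genes were then lower, against 7.98% of all genes. Without AFMC replicate 3, the library rich in immune markers, 74 of 82 cytosolic genes were negative with a median of -0.17, and 11 were lower at an unadjusted p under 0.05, against 4.91% of all genes tested in that fit. There edgeR called 1 member lower, Rpl35al1, which was the only gene called lower (0.00633% of those tested). The library left out was the AFMC library low for Rpl35al1, at 2.09 CPM, while the AFMC libraries kept had 40.8 and 19.2. This call therefore rests on leaving out that library. The number of the 82 cytosolic genes lower at that unadjusted p was 6 without AFMC replicate 1, against 7.03% of the genes tested, and 40 without AFMC replicate 2, against 10.2%. It was 5, 11 and 15 without AFMC-AA-SP replicates 1, 2 and 3, against 4.23%, 4.39% and 4.93%. The mitochondrial median was -0.09 without AFMC replicate 1.

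Levels of ribosomal protein messages in AFMC-AA-SP and Hollow were close. The cytosolic median log2 fold change was -0.06 with 66 of 82 genes negative, and the mitochondrial median -0.02 with 26 of 39. No member had an unadjusted p under 0.05 by edgeR, against 1.69% of all genes higher and 1.55% lower at that p and 0% called, and DESeq2 called no member. The smallest p-value of the mitochondrial genes belonged to Mrpl18, with 19.70, 19.95 and 19.19 CPM in Hollow and the AFMC-AA-SP levels given above (0.21 ± 0.10, unadjusted p = 0.0673, edgeR). Among the cytosolic genes of smallest p, Rpl8 had an unadjusted p of 0.101 (edgeR). The cytosolic median was -0.13 without Hollow replicate 1, -0.03 without Hollow replicate 2, 0.00 without Hollow replicate 3 and -0.02 without AFMC-AA-SP replicate 1. The mitochondrial median lay between -0.08 and 0.01 over the 9 fits that each left out 1 library, so its sign depends on single libraries.

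Rpl35al1 had the largest change of all members, and it is 1 of 2 loci that carry that name or synonym in RefSeq. Whether both encode the same protein was not tested. RefSeq names the chromosome 11 gene Rpl35a and lists Rpl35al1 as a synonym. The chromosome 11 gene spans chr11:67726032-67729942 and the other gene chr12:6072271-6074618, as the deposited table lists them, on a build that it does not name. The chromosome 11 gene had 1.96, 1.28 and 2.59 CPM in the Hollow libraries, 40.8, 19.2 and 2.09 in the AFMC libraries and 1.55, 2.86 and 2.08 in the AFMC-AA-SP libraries. Only AFMC replicates 1 and 2 were high, and the groups overlapped. The log2 fold change was 3.40 ± 0.85 against Hollow (adjusted p = 0.116 by edgeR, 0.00696 by DESeq2) and -3.26 ± 0.84 for AFMC-AA-SP against AFMC (0.143 and 0.0131). The chromosome 12 gene, which RefSeq names Rpl35al1 and the pathway term holds under another name, had 74.3, 86.0 and 91.0 CPM in the Hollow libraries, 59.2, 65.8 and 97.6 in the AFMC libraries and 77.1, 78.0 and 83.1 in the AFMC-AA-SP libraries. Summed over both loci the levels were 76.2 to 100.02 CPM with a coefficient of variation of 9.93% over the 9 libraries, against 163% and 15.1% for the loci alone. In AFMC replicates 1 and 2 the chromosome 12 gene was at its lowest, and the share of the sum at chromosome 11 was 40.8% and 22.6% there against 1.47% to 3.53% elsewhere.

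Further pairs of loci, chosen after their values were seen, showed the same pattern. Rpl30 on chromosome 7 (4569 bp, an lncRNA in the table) had 23.8 to 106 CPM and the intron-free Rpl30 on chromosome 10 had 23.1 to 110 CPM, with coefficients of variation of 46.8% and 36.7%, while their sum had 107 to 145 CPM and 11.3%. The chromosome 7 share of the sum ran from 20.7% to 82.1% within 9 libraries and overlapped between groups. Rps27a, which encodes a ubiquitin fused to a 40S protein, had 104 to 334 CPM on chromosome 14. The intron-free Rps27a-ps1 on chromosome 5, a pseudogene in RefSeq and outside the pathway term, had 93.6 to 308 CPM. Their coefficients of variation were 43.6% and 37.3%, against 11.7% for the sum. Rpl12 on chromosome 3 and the intron-free Rpl12 on X had 20.3% and 21.7%, against 8.71% for the sum. Copies of the same gene can share reads, so values at a single one of these loci are uncertain, and the cause of the split was not tested. Restricting the cytosolic genes to the 68 with an annotated intron, a choice made after seeing the data, left medians of 0.15, -0.21 and -0.05 in the 3 comparisons. Those 68 still hold Rpl35al1, Rpl30 on chromosome 7, Rps27a and Rpl12 on chromosome 3, so these medians cannot show whether shared reads matter.

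**Figure D5:**
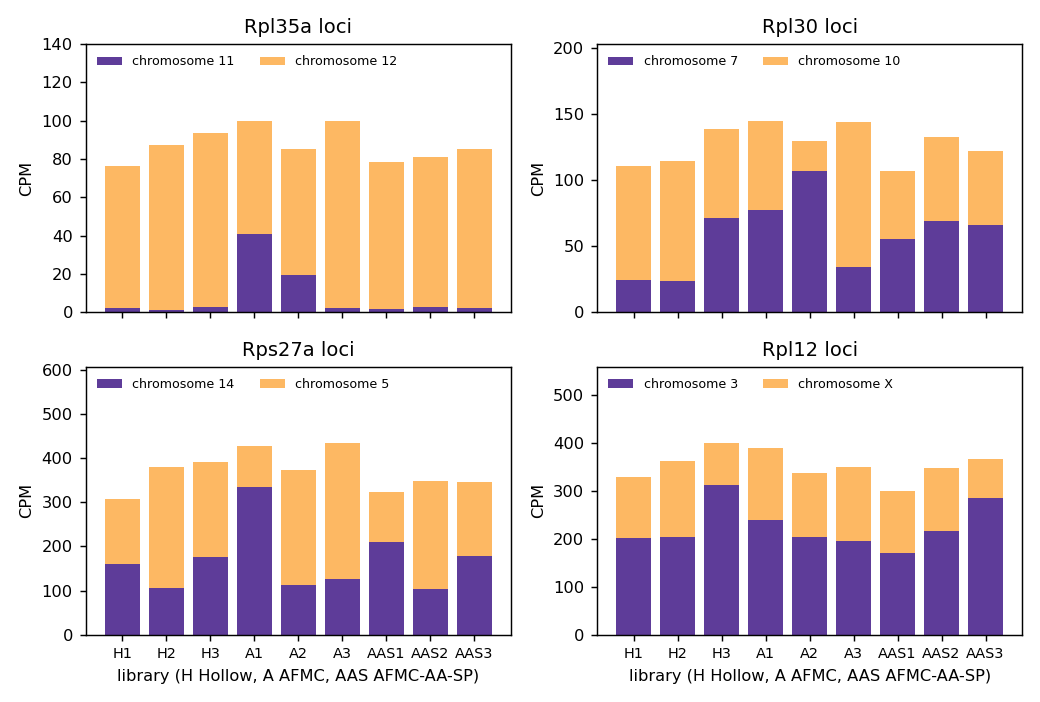
CPM at 2 loci of the same or a like name, stacked by library, for Rpl35a, Rpl30, Rps27a and Rpl12 (H is Hollow, A is AFMC, AAS is AFMC-AA-SP). The chromosome 5 locus of Rps27a is a pseudogene in RefSeq. The height of the stack varies less than either part: for Rpl30 the sum has 107 to 145 CPM and the chromosome 7 part 23.8 to 106.

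Rpl17, a 60S protein at the exit tunnel, was chosen after its values were seen, for its low correlation with its class. It had 296, 177 and 185 CPM in the Hollow libraries, 199, 179 and 188 in the AFMC libraries and 243, 241 and 181 in the AFMC-AA-SP libraries, and its correlation with the rest of the class over 9 libraries was -0.59. Its highest value came from Hollow replicate 1, where the cytosolic class was lowest. Groups overlapped in each comparison of Rpl17. Among mitochondrial genes Mrps2 had the lowest correlation, at -0.35, with 23.7, 22.4 and 20.1 CPM in the Hollow libraries, 24.0, 24.7 and 24.3 in the AFMC libraries and 28.6, 23.9 and 23.3 in the AFMC-AA-SP libraries.

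The genes that build or serve ribosomes were read from lists, and edgeR called none of them. In the comparisons with AFMC, the lists of ribosome biogenesis, translation factors and mitoribosome assembly had medians nearer 0 than the cytosolic ribosomal protein genes. The values of all lists are without the length offset, and the lengths of the listed genes were not weighed. The 58 tested genes of ribosome biogenesis had medians of 0.04 for AFMC against Hollow, -0.09 for AFMC-AA-SP against AFMC and -0.05 for AFMC-AA-SP against Hollow, with 37, 14 and 12 positive. In that list Mdn1, a large AAA ATPase of 60S assembly, had 60.02, 60.29 and 53.89 CPM in the Hollow libraries, 33.1, 42.0 and 38.3 in the AFMC libraries and 52.3, 55.1 and 46.9 in the AFMC-AA-SP libraries. AFMC lay below both other groups for Mdn1, with a log2 fold change of -0.62 ± 0.10 against Hollow (adjusted p = 0.102, edgeR). The part of gene length in the Mdn1 values was not tested. The 37 tested genes of the translation factor list had medians of 0.03, -0.11 and -0.07. That list also names genes that are not translation factors, such as Hnrnpa1 and Nap1l1. The 37 genes of mitoribosome assembly and mitochondrial translation had medians of 0.04, -0.06 and 0.00. Messages for the 13 proteins encoded by mitochondrial DNA, which the mitochondrial ribosome makes, had medians of 0.11, -0.07 and 0.03. The 22 genes of growth control had -0.11, 0.08 and -0.03, with 6, 16 and 6 positive. This list mixes activators such as Mtor with inhibitors such as Tsc1 and Tsc2, so its median gives no direction of growth control. There Gabpa, whose core is counted above, had the smallest p, at -0.33 ± 0.07 in AFMC against Hollow (adjusted p = 0.115, edgeR) and 0.40 ± 0.07 in AFMC-AA-SP against AFMC (adjusted p = 0.103, edgeR).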

How the data were processed

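RNA-seq counts and FPKM of 9 libraries were used, 3 for each conduit group. The deposited counts are whole numbers per gene and were not scaled by the authors, per the file headers and values. The deposited FPKM values follow from each count, a single gene length and the column total, and that length was recovered from them. No aligner, annotation release or genome build is named in the sources used here, so coordinates are given as deposited, and sequences come from RefSeq GRCr8.

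Counts were fitted in R 4.3.3 with edgeR 4.0.16 (TMM scaling, filterByExpr, quasi-likelihood, 1 term per group over all 9 libraries, two-sided, Benjamini-Hochberg over 15659 genes, adjusted p under 0.05). CPM uses TMM-scaled totals, and the SE is the log2 fold change divided by the root of F. The fit was tested on simulated data with 200 changed genes, where it recovered 14%, 72%, 98% and 100% of log2 changes of 0.5, 1, 2 and 3 for AFMC against Hollow. DESeq2 1.42.0 and limma 3.58.1 on log2(FPKM + 1) or log2(FPKM + 0.1) were alternatives. The length offset is a lowess (span 0.3) of each library's log2 CPM deviation on log2 length, fitted on genes outside the group. An intron-free gene has a length within 2 bp of its span. Members and lists were chosen with earlier results of these data known. Described genes are the 4 of smallest p per class and comparison, the extremes of FPKM, paralogs and preset subunits; others are marked as chosen after seeing values. Some members that this choice names are not reported here.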

Additional observations from a re-analysis of the deposited data

How the results depend on the processing

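Class medians of the comparisons with AFMC kept their sign under the 22 settings run, while those of AFMC-AA-SP against Hollow lay near 0 and changed sign when single libraries were left out. Over all genes, where edgeR called 0 in each comparison, the number called for AFMC against Hollow was 1028 by DESeq2, 1 by limma on log2(FPKM + 0.1), 1 with the replicate block and 1 with the replicate block and length offset, and 0 to 894 when each library was left out in turn, the highest without AFMC replicate 2. For AFMC-AA-SP against AFMC it was 594 by DESeq2, 6 without the filter, 2 with AFMC replicate 3 left out under the length offset, 2 with the replicate block, 2 with the block and length offset, and 0 to 579 leaving out 1 library. For AFMC-AA-SP against Hollow it was 8 by DESeq2, 1 by limma with either pseudocount, 1 with AFMC replicate 3 left out under the length offset, and 0 to 1 leaving out 1 library. The mitochondrial median for AFMC against Hollow was 0.0349 with the length offset and 0.0320 with the replicate block and length offset. Leaving out 1 library gave cytosolic medians of 0.06 to 0.22, -0.27 to -0.14 and -0.13 to 0.00 in the 3 comparisons, and mitochondrial medians of 0.06 to 0.17, -0.20 to -0.09 and -0.08 to 0.01. Of 504 values of named genes, 7 newly passed the threshold, and the cause was not tested. The labels do not say whether replicate numbers pair the samples, so the block is only an alternative. Same-number libraries of different groups correlated at -0.05 to 0.14, and those of other numbers at -0.13 to 0.08, which does not decide it. Depth limits the lowest tested members, such as Rpl3l, which had 14 to 151 counts per library.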

Other observations

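Mitochondrial ribosomal protein genes that the pathway term leaves out had medians of the same sign as those it holds. The 34 tested genes with Mrpl or Mrps names outside the term had a median log2 fold change of 0.13 for AFMC against Hollow (30 of 34 positive), -0.17 for AFMC-AA-SP against AFMC (29 of 34 negative) and -0.05 for AFMC-AA-SP against Hollow (21 of 34 negative), and edgeR called none, with 2, 6 and 0 at an unadjusted p under 0.05 in those directions, against 8.4%, 7.21% and 1.55% of all genes tested. Rps9, a cytosolic 40S gene outside the term that was chosen after its values were seen, had 265, 292 and 289 CPM in the Hollow libraries, 361, 309 and 384 in the AFMC libraries and 263, 291 and 293 in the AFMC-AA-SP libraries. All 3 AFMC libraries of Rps9 were above the other 6. AFMC lay wholly above Hollow for 10.2% of all genes tested. Rps18, also outside the term, overlapped between these groups, with 323, 394 and 392 CPM in Hollow and 421, 371 and 421 in AFMC. Rpl7l1, outside the term as well, overlapped too. Rpl39 on X, outside the term, had 77.6, 88.9 and 96.3 CPM in the Hollow libraries, 94.7, 82.5 and 91.5 in the AFMC libraries and 72.5, 85.6 and 84.4 in the AFMC-AA-SP libraries, and its groups overlapped.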
